A study of Mus musculus with 3 samples.

Results

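Broad Foxp3 CUT&RUN sites recovered in both replicates from mouse bone marrow-derived macrophages are described here. A broad site was a peak of replicate 2 on chromosomes 1 to 19 or X that was at least 800 bp long and overlapped, by at least 1 bp, a peak of replicate 1 that was at least 500 bp long. The pileup, which is the number of fragments stacked at a peak's summit, had to be under 1000 in both replicates. Sites were thus chosen by measured lengths and pileups of the same libraries. In all, 3185 of 94819 replicate 2 peaks met this rule, which is 3.36% of them. They were set against 47188 shorter shared sites, the replicate 2 peaks under 800 bp that overlapped any replicate 1 peak, with the same pileup limit.

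The series holds 3 libraries, of which 2 were made with a Foxp3 antibody (replicates 1 and 2) and 1 with an isotype IgG that was not analysed here. Cells were grown in RPMI medium conditioned with M-CSF, the growth factor that turns marrow progenitors into macrophages, and were fixed in 0.1% formaldehyde before the nuclease step. The title of the series names stimulation with damage-associated molecules (DAMPs) of brain origin, and the sample labels leave unstated which libraries were stimulated. No genotype, strain, age or stimulation time is stated in the labels, and nothing there shows whether the replicates were separate cultures, so the difference between them may be technical. All values come from these 2 libraries of a single group, so that no condition is compared and no test was run. Replicate 1 held 33294105 fragments and replicate 2 held 34898401, with fragment sizes of 130 and 180 bp. Their peak lists were far less alike, with 555534 peaks in replicate 1 and 94819 in replicate 2 on the chromosomes used. Of 3682 replicate 2 peaks of at least 800 bp, only 9 met no replicate 1 peak. Overlap with some replicate 1 peak was thus an easy condition to meet.

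Foxp3 is a forkhead transcription factor known above all as the lineage factor of regulatory T cells, where it binds mostly at open promoters and enhancers together with other factors. In CUT&RUN, an antibody brings a nuclease to its target in permeabilised cells, and the DNA cut free is sequenced. A long peak forms where cuts are spread over several nucleosome lengths. Promoters of many mammalian genes lie in CpG islands, stretches rich in G+C and in the CpG dinucleotide that tend to be free of nucleosomes and open to nucleases in most cell types. A peak list made without a control library does not separate binding of the factor from such openness.

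The promoters of 6 genes show what the broad sites at gene starts looked like as sequence. They are the promoters whose whole window lay within a broad site in both replicates, taken from the longest sites among the named members. Each is a RefSeq window of GRCm38.p6 (mm10) running from 250 bases before to 50 bases after the annotated start, written 5′ to 3′ on the gene's strand, with every CpG in capitals.
Cbx3 (chr6:51470366-51470665, plus strand): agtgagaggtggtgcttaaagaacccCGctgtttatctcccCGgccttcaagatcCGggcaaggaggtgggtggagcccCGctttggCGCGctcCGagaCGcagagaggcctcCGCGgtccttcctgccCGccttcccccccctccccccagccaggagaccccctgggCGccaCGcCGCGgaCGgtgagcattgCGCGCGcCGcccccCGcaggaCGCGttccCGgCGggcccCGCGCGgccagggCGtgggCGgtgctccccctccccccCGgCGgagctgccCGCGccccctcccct
Mfsd11 (chr11:116853512-116853811, plus strand): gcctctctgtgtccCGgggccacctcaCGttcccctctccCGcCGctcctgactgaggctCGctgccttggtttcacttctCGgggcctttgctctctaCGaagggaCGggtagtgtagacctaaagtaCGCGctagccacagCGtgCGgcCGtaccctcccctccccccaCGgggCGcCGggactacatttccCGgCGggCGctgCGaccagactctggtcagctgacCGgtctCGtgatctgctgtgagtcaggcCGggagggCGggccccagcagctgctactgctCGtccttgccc
Kdm6a (chrX:18162325-18162624, plus strand): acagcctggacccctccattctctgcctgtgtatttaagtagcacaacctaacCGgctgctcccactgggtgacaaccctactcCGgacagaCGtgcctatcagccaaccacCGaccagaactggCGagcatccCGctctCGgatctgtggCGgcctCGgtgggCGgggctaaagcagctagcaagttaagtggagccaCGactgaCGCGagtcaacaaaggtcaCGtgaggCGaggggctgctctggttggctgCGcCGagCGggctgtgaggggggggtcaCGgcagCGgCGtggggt
Ss18l1 (chr2:180042233-180042532, plus strand): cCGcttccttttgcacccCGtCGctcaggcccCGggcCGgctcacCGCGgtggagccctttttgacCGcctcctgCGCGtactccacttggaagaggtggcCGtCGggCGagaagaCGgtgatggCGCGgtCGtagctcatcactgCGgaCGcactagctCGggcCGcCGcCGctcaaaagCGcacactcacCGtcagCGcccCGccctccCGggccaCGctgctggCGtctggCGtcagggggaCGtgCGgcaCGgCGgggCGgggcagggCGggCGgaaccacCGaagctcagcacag
Ep300 (chr15:81585964-81586263, plus strand): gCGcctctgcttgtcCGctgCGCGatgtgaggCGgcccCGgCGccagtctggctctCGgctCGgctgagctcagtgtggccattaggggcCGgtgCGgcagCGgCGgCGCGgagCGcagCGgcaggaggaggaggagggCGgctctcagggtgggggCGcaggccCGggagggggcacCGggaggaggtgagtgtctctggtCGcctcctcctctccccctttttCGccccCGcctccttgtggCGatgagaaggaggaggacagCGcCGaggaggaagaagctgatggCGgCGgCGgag
Hnrnpd (chr5:99978889-99979188, minus strand): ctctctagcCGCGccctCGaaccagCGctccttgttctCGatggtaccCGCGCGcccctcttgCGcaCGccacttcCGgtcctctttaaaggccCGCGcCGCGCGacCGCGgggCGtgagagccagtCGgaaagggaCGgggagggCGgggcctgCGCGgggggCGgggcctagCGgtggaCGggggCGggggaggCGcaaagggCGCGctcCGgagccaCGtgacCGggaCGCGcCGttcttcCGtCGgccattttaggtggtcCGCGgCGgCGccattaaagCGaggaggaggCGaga

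The named members include up to 3 sites from each gene list, so the functions of these genes follow in part from that choice. Cbx3 encodes a heterochromatin protein of the HP1 family, Kdm6a a histone H3K27 demethylase, Ep300 a histone acetyltransferase, Ss18l1 a subunit of neuronal chromatin remodelling complexes, and Hnrnpd an RNA-binding protein that controls mRNA decay. Mfsd11, a transporter-like membrane protein, starts beside the splicing factor gene Srsf2. The windows held between 21 CpGs (Kdm6a) and 45 (Hnrnpd), with 34 in Cbx3, 25 in Mfsd11, 39 in Ss18l1 and 30 in Ep300. All of them lay above the median of 14 CpGs over 17274 protein-coding genes with a RefSeq promoter entry. None held the forkhead core word TGTTTAC on either strand, and all 6 held the GC box word GGGCGG.

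The broad sites were long and moderately enriched, and replicate 1 gave the higher values at nearly all of them. Their median length was 976 bp in replicate 2 (quartiles 877 and 1139, range 800 to 2409) and 922 bp in replicate 1 (747 and 1112, range 500 to 2647). The corresponding medians over all peaks were 236 and 167 bp. Median pileup was 39 fragments in replicate 2 and 80 in replicate 1, against 21 in both full lists. Median fold enrichment, the authors' ratio of pileup to a background estimated from the same library, was 6.01 in replicate 2 (quartiles 5.18 and 6.94) and 12.1 in replicate 1 (9.70 and 14.9). Fold was higher in replicate 1 at 3141 sites (98.6%). Shorter shared sites had median folds of 4.32 and 7.62 and median pileups of 24 and 39 fragments in replicates 2 and 1, so that length, pileup and fold differed together between the sets. Because length and pileup chose the sites, these values are a description.

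Broad sites took 3.30 Mb, or 10.9% of the length covered by replicate 2 peaks. The replicates drew them at similar places with less similar outlines. The shared stretch covered a median of 87.5% of the replicate 2 peak and 92.8% of the replicate 1 peak, and 2897 sites (91.0%) overlapped by at least 50% of both. Summits, however, lay a median of 238 bp apart, and 1376 pairs (43.2%) were within 200 bp. In 2557 cases a single replicate 1 peak lay under the site, while 592 sites spanned 2 such peaks, 35 spanned 3 and 1 spanned 4 or more. Across the 3185 sites, Spearman's rho between the replicates was 0.36 for fold, 0.34 for pileup and 0.33 for length, and it was 0.41 for fold over the 47188 shorter shared sites. These points are sites of the same 2 libraries, and the length and pileup limits narrow their range.

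Broad sites lay mostly at gene ends. The summit of 1845 sites (57.9%, 95% exact Clopper-Pearson interval 56.2 to 59.7%) was within 1000 bp of an annotated end of a protein-coding gene, against 10290 shorter shared sites (21.8%, 21.4 to 22.2%). The share was 15.1% over all replicate 2 peaks and 5.97% over all replicate 1 peaks. Ends of 2 or more genes were within reach of 206 broad sites (6.47%), against 2.87% of shorter ones. A further 690 broad sites (21.7%) lay inside genes away from the ends and 650 (20.4%) lay between genes, against 39.2% and 39.0% of shorter shared sites. The summit is a single base, so a long peak has no advantage in this count. These intervals, like all others here, cover counting error only.

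The share at gene ends climbed with length up to a point and was lower for the longest sites. It was 9.18% for shared sites under 200 bp, 16.0% from 200 to 399 bp, 35.8% from 400 to 599 bp and 51.6% from 600 to 799 bp. Within the broad sites it was 58.6% from 800 bp to under 1000 bp (1724 sites), 60.7% from 1000 to 1199 bp (868 sites) and 51.8% at 1200 bp or more (593 sites, 47.7 to 55.9%). The 497 long replicate 2 peaks outside the rule had nearly the same share, 55.1% (50.6 to 59.6%). Of those, 479 met only replicate 1 peaks under 500 bp, 9 met none and 9 were set aside for pileup. The intervals of these long peaks and of the broad sites overlapped.

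**Figure D1:**
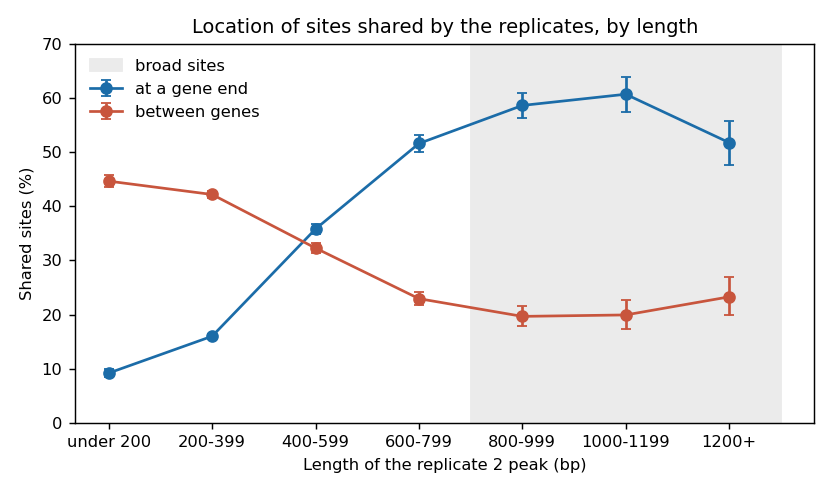
Share of sites found in both replicates (%) whose summit lay within 1000 bp of a protein-coding gene end (blue) or between genes (red), by length of the replicate 2 peak in bp, with 95% exact intervals as bars and the broad sites shaded. The share at gene ends goes from 9.18% under 200 bp to 60.7% at 1000 to 1199 bp and is 51.8% at 1200 bp or more, and the share between genes goes from 44.7% to 19.9% and 23.3%.

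The gene end in question was nearly always the transcription start. Strand and start were known from the promoter table for the genes at 1500 of the 1845 sites, and 98.9% of these (98.3 to 99.4%) lay within 1000 bp of a start. Only 16 lay at the far end alone. Among 8247 shorter shared sites at gene ends with a known strand, 87.8% (87.1 to 88.5%) lay at the start. Counting starts inside the peak itself, 1450 broad sites held the start of 1 gene, 120 held starts of 2 genes and 1 held 3 or more, so that 49.3% of all broad sites covered a start. Of the sites with 2 genes, 116 had them on opposite strands, and in 98 of those the genes were transcribed away from each other, with starts a median of 159.5 bp apart.

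Sites that covered the start of 1 gene reached further into the gene than away from it. In replicate 2 they extended a median of 330 bp upstream (quartiles 196 and 493) and 665 bp downstream (511 and 801). In replicate 1 the medians were 276 and 619 bp. The downstream arm was the longer in 1135 of 1450 sites (78.3%) in replicate 2, in 1119 (77.2%) in replicate 1 and in 1010 (69.7%) in both. Summits lay a median of 144 bp downstream of the start in replicate 2 and 153 bp in replicate 1, and in 753 sites (51.9%) both summits were downstream. At 400 bp into the gene, 88.4% of these starts were still covered in replicate 2 and 81.7% in replicate 1, beside 36.4% and 47.5% of 5016 starts held by shorter shared sites. At 400 bp upstream the shares were 38.5% and 38.3% for broad sites and 6.86% and 14.6% for shorter ones. The downstream lean was thus present in both sets. The sets were selected on length, which fixes that broad sites cover more on the whole, so the 2 sets are a description. The length limit does not set which side of the start is the longer.

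**Figure D2:**
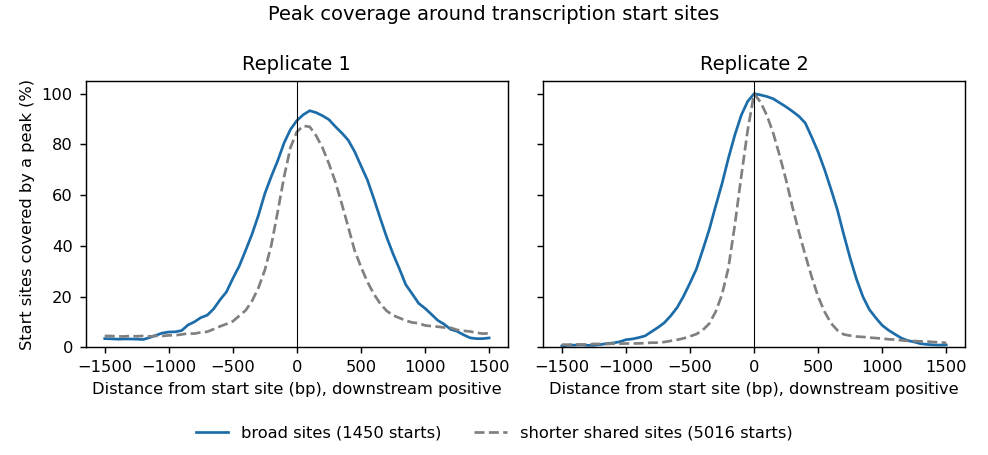
Percent of transcription start sites covered by a peak at each distance from the start in bp (negative upstream, positive downstream), in replicate 1 (left) and replicate 2 (right), for the 1450 starts of broad sites with 1 gene (blue) and the 5016 starts of shorter shared sites (dashed). Coverage leans downstream in both sets and in both replicates. Of the starts of broad sites, 81.7% and 88.4% are covered at 400 bp inside the gene. Every start is covered at 0 in replicate 2 because that replicate defined which starts were held.

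The sites at the ends of 2 or more genes with the longest replicate 2 peaks, and that of Srsf2 from the splicing list, are given first. The site shared by Hnrnpa2b1, which encodes an RNA-binding protein of the splicing machinery, and Cbx3 was 2042 bp in replicate 2 (chr6:51469209-51471250) and 840 bp in replicate 1. Its pileup was 43 and 82 fragments and its fold 5.15 and 10.2 in replicates 2 and 1. The outlines thus differed, and a second replicate 1 peak lay elsewhere under the site. The site over the starts of Srsf2, an SR splicing factor gene, and Mfsd11 was 1812 and 1719 bp long (chr11:116852081-116853892 in replicate 2), with pileups of 50 and 135 and folds of 5.77 and 12.4. Here the outlines were alike and the summits were 1098 bp apart. The site between Psma7, a proteasome subunit gene, and Ss18l1 was 1767 and 1330 bp long, with folds of 5.30 and 11.3. The site between Txndc16 and Gpr137c was 1580 and 1108 bp, with folds of 8.83 and 19.6 and summits only 7 bp apart.

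Sites at the end of a single gene reached similar lengths. The Med12l site, at a gene related to a Mediator kinase module subunit, was 1998 and 1232 bp long in replicates 2 and 1, with pileups of 53 and 116. The Rims2 site, at a gene for a scaffold of synaptic vesicle release, was 1986 and 1218 bp long, with pileups of 46 and 74. The longest broad site by its replicate 2 peak lay at Fcgr3, the gene for a low-affinity Fc receptor for IgG, and was 2409 and 2378 bp long (chr1:171063803-171066211 in replicate 2). Its pileups of 266 and 399 were far above the medians of 39 and 80, while its folds of 6.64 and 7.42 were near the median in replicate 2 and below it in replicate 1. Fcgr3 belongs to a family of related genes, and its values are uncertain where copies share reads.

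The 8 sites that ranked highest by the mean of their fold percentiles in the replicates lay at or near a mixture of genes by function. Single replicates had higher folds elsewhere, up to 34.8 in replicate 1. The site of Canx, an endoplasmic reticulum chaperone gene, had folds of 9.28 and 23.9 in replicates 2 and 1, and that of Selenos, which serves the removal of misfolded proteins from the same organelle, had 10.8 and 22.7. Ppp1cb, a catalytic subunit gene of protein phosphatase 1, had 9.75 and 27.7. Eif3j1, a translation initiation factor subunit gene, had 10.6 and 25.4. Stxbp5l, a regulator of vesicle fusion, had 10.8 and 24.1, and Fam117b had 9.49 and 24.7. These 6 sites were 823 to 1134 bp long in replicate 2, beside a median of 976 bp and an upper quartile of 1139 bp over all broad sites. The other members of the top 8 lay between genes, 164876 bp from Gdi2 (18.03 and 28.5) and 22037 bp from Gm8068 (10.6 and 24.2).

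Promoters with a broad site were rich in CpG. The 1825 genes with a broad site within 1000 bp of either end and a promoter entry had a median of 29 CpGs (quartiles 21 and 38). Their median G+C was 68.3% in the 300-base window. A broad site overlapped the window itself at 1655 genes, with medians of 31 CpGs and 69.7% G+C. The 7983 genes with shorter shared sites alone had 20 CpGs and 60.3% G+C, and the 7466 genes with neither had 4 CpGs and 48.7%. At least 15 CpGs were present in 86.7% of promoters with a broad site (85.0 to 88.2%), in 67.5% with shorter sites alone (66.5 to 68.5%) and in 17.6% with neither (16.7 to 18.4%). A broad site was found at 1.10% of genes with 0 to 4 CpGs (54 of 4900) and at 34.1% of genes with 30 or more (891 of 2615, 32.3 to 35.9%), and the share was higher in each step of CpG count than in the step before. Shorter sites alone did not follow this course to the end, at 14.1% of genes with 0 to 4 CpGs, 71.6% with 20 to 24 and 54.7% with 30 or more. G+C content also affects library amplification and sequencing, and its part in these values was not tested.

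**Figure D3:**
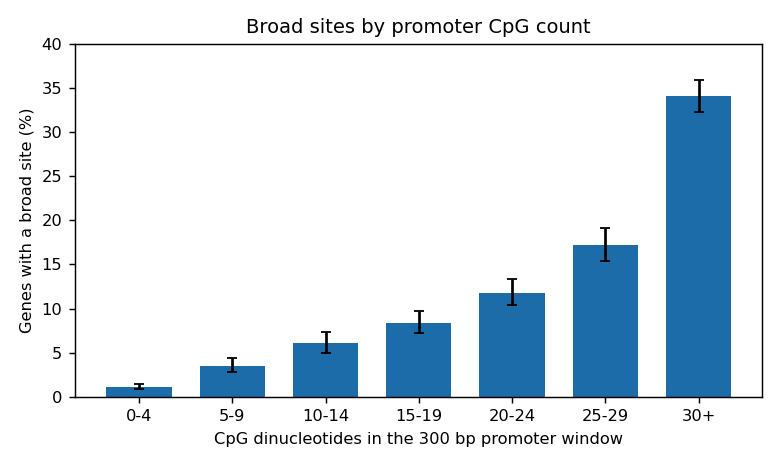
Percent of protein-coding genes with a broad site at an annotated end (bars, with 95% exact intervals) by number of CpG dinucleotides in the 300-base promoter window. The share goes from 1.10% at 0 to 4 CpGs to 34.1% at 30 or more.

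Short sequence words were counted on both strands of the same windows, and a match describes letters only. The forkhead core TGTTTAC was present in 1.70% of promoters with a broad site (31 of 1825, 1.16 to 2.40%), in 2.13% with shorter sites alone and in 2.96% of all promoters. Among promoters with at least 15 CpGs the first 2 shares were 1.77% and 1.73%. The GC box GGGCGG, the word bound by Sp and Klf factors, was present in 78.7%, 62.2% and 46.9% of the 3 sets, and in 86.6% against 76.1% among CpG-rich promoters. The word TCTCGCGA, known from ubiquitously active promoters and bound by Zbtb33, was present in 3.29% (2.52 to 4.21%), 1.93% (1.64 to 2.26%) and 1.55%. Over all promoters, these 2 words were the ones whose interval at broad sites lay above that at shorter sites alone. Among CpG-rich promoters the intervals of TCTCGCGA overlapped, with 3.67% (2.80 to 4.71%) and 2.67% (2.26 to 3.14%).

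Other words were less frequent in promoters with a broad site than in those with shorter sites alone, or had overlapping intervals. The ETS core CCGGAAG was present in 12.9% of promoters with a broad site (11.4 to 14.6%) and 17.0% with shorter sites alone (16.1 to 17.8%), and the shares were 14.4% and 21.2% among CpG-rich promoters. GAGGAAGT, the longer word of the macrophage factor PU.1, which shares the letters GGAAG with the ETS core, was present in 1.64% and 2.59%. TGAGTCA, the AP-1 word, was present in 2.25% and 3.67%. The NRF1 word GCGCATGC was present in 3.84% and 5.37%, and the TATA box word TATAAA in 5.10% and 7.84%. Among CpG-rich promoters the NRF1 word was present in 4.36% and 6.997%, with separate intervals. The intervals there overlapped for the AP-1 word, with 1.96% (1.34 to 2.77%) and 2.58% (2.17 to 3.04%), and for the TATA word, with 4.05% (3.13 to 5.14%) and 4.55% (4.01 to 5.14%). For the PU.1 word, the CRE word TGACGTCA (3.51% and 2.99%), the E-box CACGTG (9.75% and 10.2%), CCAAT (35.4% and 38.7%) and the YY1 word AAGATGGC (4.22% and 4.12%) the intervals overlapped. A window rich in CpG holds words with CpG more readily, and no share was corrected for base composition.

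A broad site within 1000 bp of an end was found at 2242 of 21631 protein-coding genes, or 10.4%. Shorter shared sites alone were found at 10083 genes (46.6%). Here a peak counted when it overlapped the window, so a long peak reaches more genes than a short one. Gene lists were read against the 10.4%, as counts with 95% exact intervals. Of 18 lists, chromatin regulators had the highest share with 17 of 35 genes (48.6%, 31.4 to 66.0%), followed by RNA processing and splicing with 12 of 34 (35.3%, 19.7 to 53.5%) and forkhead genes with 9 of 31 (29.03%, 14.2 to 48.0%). In these 3 lists the lower bound was above 10.4%. The lists were chosen with earlier results of these data known, so these bounds are a description. CpG-rich promoters were frequent in these lists. Within promoters of at least 15 CpGs, 19.1% of all genes had a broad site. The list counts there were 14 of 25, 11 of 28 and 4 of 14 in that order. No intervals were computed for these counts. Only 19 of the 31 forkhead genes had a promoter entry, so the forkhead count rests on few genes and does not set that list apart.

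**Figure D4:**
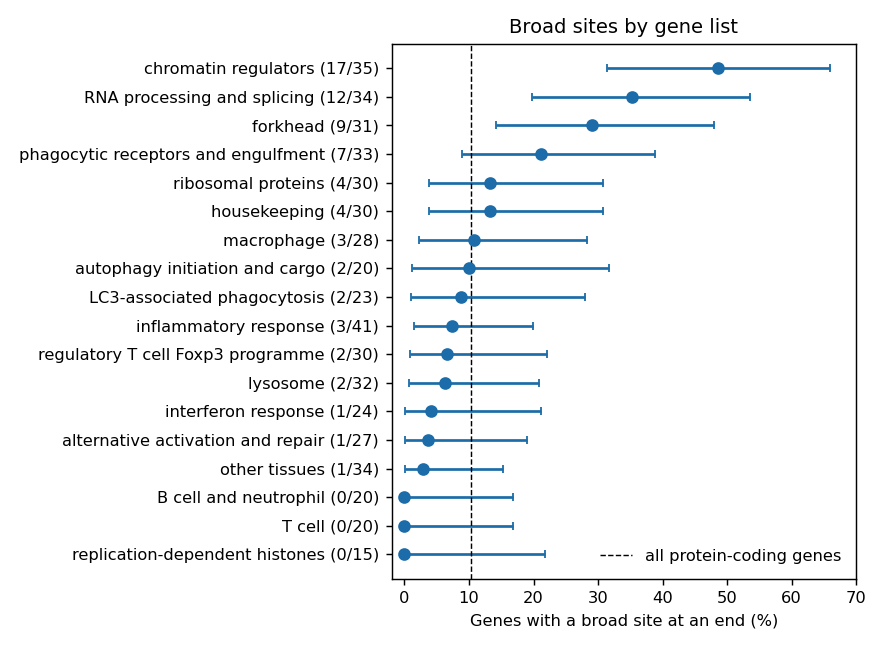
Percent of the genes of each list with a broad site within 1000 bp of an annotated end (points, with 95% exact intervals and the counts beside each name), with the 10.4% of all protein-coding genes as a dashed line. Chromatin regulators, RNA processing and forkhead genes have intervals wholly to the right of the line.

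Among chromatin regulators, the longest sites lay at Kmt2c, Kdm6a and Ep300. Kmt2c, which encodes a histone H3K4 methyltransferase of enhancers, had a site of 1860 and 881 bp in replicates 2 and 1, with pileups of 58 and 85. Kdm6a, on chromosome X, had a site of 1779 and 623 bp with pileups of 42 and 99, and its replicate 2 summit was 2511 bp inside the annotated span of the gene. The site covered the internal start whose promoter is printed. Ep300 had a site of 1351 and 981 bp with pileups of 52 and 75. The Ezh2 and Suz12 genes, both for subunits of the Polycomb complex PRC2, had sites of 1309 and 1448 bp and of 1162 and 1430 bp, so that here replicate 1 gave the longer peaks. Crebbp, Smarca4, Chd1, Hdac2, Setd2, Tet2, Tet3, Ctcf, Smc3, Ncor1 and Kdm5a were also among the 17, with lengths from 800 to 1344 bp in replicate 2.

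The splicing list also included long sites. Beside Srsf2 and Hnrnpa2b1, Hnrnpd had a site of 1347 and 1283 bp, and Srsf5, Srsf6, Srsf10, Tra2b, Ddx17, Rbm39, Clk1, Clk4 and Tardbp had sites of 831 to 1138 bp in replicate 2. Housekeeping genes, also active in most cells, had a broad site in 4 of 30 cases (13.3%, 3.76 to 30.7%), an interval that included the 10.4% of all genes and overlapped that of the splicing list, and 20 of the 30 had shorter shared sites alone. They included Hprt (807 and 747 bp in replicates 2 and 1) and Vps29, whose site it shared with Rad9b. Ribosomal protein genes likewise had 4 of 30, namely Rpl10a, Rpl13, Rps16 and Rpl7, and the summit of the Rpl7 site was at the neighbouring gene Rdh10. No broad site was found at the 15 matched replication-dependent histone genes (interval up to 21.8%), although 14 of them had a shorter shared site.

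Forkhead genes with a broad site were Foxa2, Foxd2, Foxj3, Foxk1, Foxk2, Foxl2, Foxn2, Foxo6 and Foxq1. Foxd2, a developmental regulator, had a site of 1502 and 890 bp with pileups of 74 and 120 in replicates 2 and 1. Foxn2 had a site of 1454 and 1133 bp with pileups of 45 and 62. Foxq1 had a site of 1298 and 833 bp with pileups of 54 and 206. The Foxp3 gene itself had no broad site. Over its span and 1000 bp on both sides it had no peak in replicate 2 and 7 peaks in replicate 1, the longest of 440 bp.

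Genes of uptake and digestion had broad sites at shares whose intervals included 10.4%. Phagocytic receptor and engulfment genes had 7 of 33 (21.2%, 8.98 to 38.9%). Beside Fcgr3 they were Elmo1 and Dock1, which together activate Rac during engulfment, the integrin gene Itgb5, the scavenger receptor gene Scarb1, the bridging ligand gene Gas6 and the adaptor gene Gulp1. The Elmo1 site was 1229 and 1344 bp long with pileups of 57 and 80 in replicates 2 and 1, and the Itgb5 site was 1038 and 971 bp long with pileups of 33 and 60. Autophagy initiation and cargo genes had 2 of 20, the kinase gene Ulk2 (1104 and 969 bp) and the mitophagy receptor gene Bnip3l (854 and 876 bp). The lists for LC3-associated phagocytosis and for the lysosome had 2 of 23 and 2 of 32. These were Map1lc3a (836 and 1190 bp), which encodes an LC3 protein, Atg12 (1114 and 1178 bp), whose site it shared with Ap3s1, the lysosomal regulator gene Tfeb (920 and 1002 bp) and the proton pump subunit gene Atp6v1a (971 and 809 bp), whose site it shared with Naa50. Rubcn, which encodes Rubicon of LC3-associated phagocytosis, had no broad site, and its longest peaks were 529 bp in replicate 2 and 573 bp in replicate 1.

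Genes of macrophage identity and of immune responses had broad sites at shares whose intervals included the 10.4% of all genes. The macrophage list had 3 of 28 (10.7%, 2.27 to 28.2%), all transcription factor genes, namely Cebpb (1396 and 682 bp), Cebpa (1097 and 1670 bp) and Maf (1021 and 731 bp). Inflammatory response genes had 3 of 41 (7.32%, 1.54 to 19.9%), namely Nfkb1, its inhibitor gene Nfkbia and the immediate early gene Egr1, and no cytokine or chemokine gene of the list was among them. Interferon response genes had 1 of 24 (4.17%, 0.105 to 21.1%), which was Irf1 with 810 and 821 bp. Alternative activation and repair genes had 1 of 27 (3.70%, 0.0937 to 18.97%), which was Pparg with 1502 and 507 bp. Genes of the Foxp3 programme of regulatory T cells had 2 of 30 (6.67%, 0.818 to 22.1%), the phosphodiesterase gene Pde3b (1230 and 1561 bp) and the repressor gene Bach2 (1265 and 568 bp). T cell markers and B cell and neutrophil markers had 0 of 20 each (intervals up to 16.8%). Genes of other tissues had 1 of 34 (2.94%, 0.0744 to 15.3%), the myelin gene Mbp. These intervals also included 10.4%, and 10 T cell and 5 B cell and neutrophil markers had shorter shared sites alone. Peaks on DNA carry no expression level, so the macrophage label could not be checked by RNA markers here.

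Broad sites inside genes included starts of shorter transcripts and sites with no start in reach. Of the 690 sites away from gene ends, 233 (33.8%) covered an annotated internal start. The 3 longest covered none. The Stam2 site, in a gene of endosomal sorting, was 2058 and 1698 bp long in replicates 2 and 1, with pileups of 53 and 111. The Sult2a3 site, in a sulfotransferase gene, was 2033 and 1874 bp long with pileups of 28 and 57. The Pde1c site, in a phosphodiesterase gene, was 2016 and 1994 bp long (chr6:56246633-56248648 in replicate 2) with pileups of 49 and 60. Its edges differed by at most 17 bp between the replicates, and it lay 177572 bp from the nearest gene end.

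Between genes, the 2 paired peaks of a broad site had outlines that were more alike than at gene ends. Both edges agreed within 100 bp at 289 of 650 sites between genes (44.5%, 40.6 to 48.4%) and at 449 of 1845 sites at gene ends (24.3%, 22.4 to 26.4%). With a tolerance of 200 bp, chosen after the values were seen, the shares were 68.2% and 48.6%. Spearman's rho of length between the replicates was 0.60 over the 650 sites and 0.25 over the 1845 sites, while rho of fold was 0.36 and 0.35. Sites between genes also had the longer replicate 1 peaks, with medians of 990 bp in replicate 2 and 1030.5 bp in replicate 1, against 974 and 888 bp at gene ends. Replicate 1 was at least as long at 56.8% of the former (52.9 to 60.6%) and 35.5% of the latter (33.3 to 37.7%). Their pileups were lower, with medians of 32 and 59 fragments against 42 and 89, and their median folds were 5.89 and 11.5 against 6.10 and 12.5. Lengths chose the sites, with unequal limits of 800 bp in replicate 2 and 500 bp in replicate 1, so these outlines are a description. Each site was paired with a single replicate 1 peak, and any other replicate 1 peak under it did not enter its outline. The part of this pairing in the contrast was not tested.

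**Figure D5:**
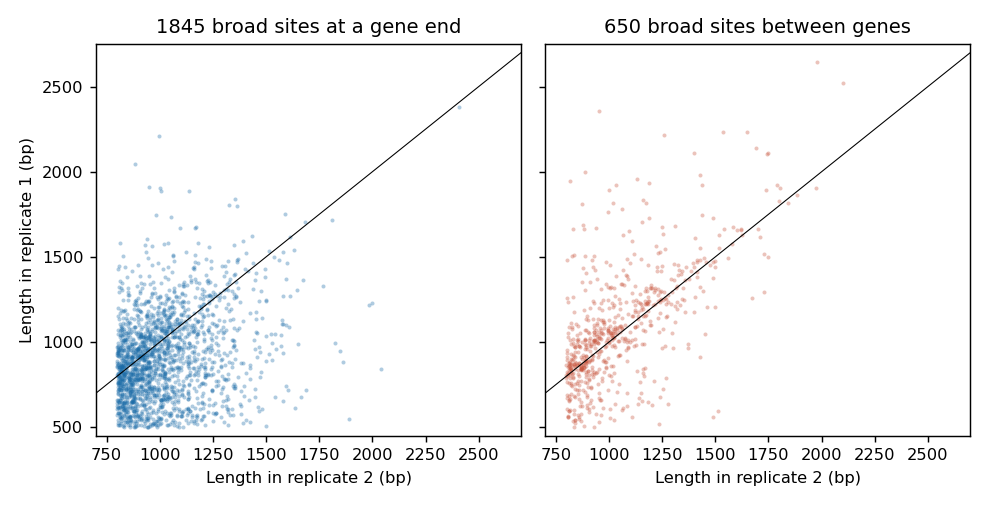
Length of the replicate 1 peak against that of the replicate 2 peak (both in bp) for the 1845 broad sites at a gene end (left) and the 650 between genes (right), 1 point per site, with the line of equal length. Points between genes gather along the line (Spearman's rho 0.60), while points at gene ends scatter and lie mostly below it (rho 0.25). The sites were chosen by length, with limits of 800 bp in replicate 2 and 500 bp in replicate 1, and 1 replicate 1 peak is shown per site.

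The sites between genes stood far from genes, and a larger share of them lay on chromosome X than of shorter shared sites between genes. Their median distance to the nearest gene end was 92856 bp, and 319 (49.1%, 45.2 to 53.0%) were more than 100 kb away, against 42664 bp and 31.5% (30.8 to 32.1%) for the 18405 shorter shared sites between genes. Chromosome X held 76 of the 650 (11.7%, 9.32 to 14.4%), against 6.92% of the shorter ones (6.55 to 7.29%) and 2.60% of broad sites at gene ends (1.92 to 3.43%). Of the 158 broad sites on X, 48.1% lay between genes, while on the autosomes the share ran from 6.17% on chromosome 19 to 26.3% on chromosome 6. The longest such site was 491632 bp from the photoreceptor matrix gene Impg1 (chr9:80956340-80958439 in replicate 2), with lengths of 2100 and 2519 bp and pileups of 37 and 76 in replicates 2 and 1. Next came a site on X 73581 bp from H2ab1 (1978 and 2647 bp) and a site 326317 bp from B3gat1 (1976 and 1902 bp), whose edges differed by at most 47 bp. No repeat annotation was used.

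A small group of broad sites had very high pileups, and it was placed differently from the rest. In 24 sites the higher of the pileups was at least 300, and 17 of these (70.8%) lay between genes and 3 at a gene end. Several of the 17 were neighbours in the stretch of chromosome 6 given below, so they are not separate cases. No interval was computed for these shares, and pileup was also part of the rule. Among 957 sites with a higher pileup of at least 100 but under 300, 71.9% lay at a gene end and 6.79% between genes, and among 2204 sites under 100 the shares were 52.4% and 25.8%. The site 164876 bp from Gdi2 (chr13:3372756-3373721) had pileups of 494 and 323 in replicates 2 and 1. A stretch of chromosome 6 (chr6:47655008-47773222) held 9 broad sites with pileups of 156 to 220 in replicate 2 and 265 to 479 in replicate 1, yet with folds of only 2.59 to 5.08 and 3.78 to 7.06. At the array of Dux homeobox genes on chromosome 10, whose copies are near-identical, the sites named by LOC100504180 and Duxf3 had pileups of 367 and 799 and of 308 and 488, and their values are uncertain because reads of such copies cannot be told apart.

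The limits of length cut through a continuous range. Just inside the length limit of replicate 2 lay sites at or near Sema4c, Gulp1 and Dip2a (800 bp each), and just outside lay Hjurp, Cntnap5a and P3h4 (799 bp each). Between 790 and 799 bp there were 115 sites that met the other limits, and between 800 and 809 bp there were 123. At the replicate 1 limit, Dpp10, Slc30a3 and Gm51591 were inside with 500 bp, and Etv4 (499 bp), Mybl1 (498 bp) and Cacna2d1 (498 bp) were outside. The pileup limit stood in a gap. The highest inside was LOC100504180 with 799 in replicate 1, followed by sites near Adam6b (604) and Cyp8b1 (584), and the nearest outside were sites near Smo with 1345 in replicate 1, Alkbh8 with 2552 in replicate 2 and Zfp825 with 3993 in replicate 1.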

How the data were processed

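The authors deposited a peak list for each of the 2 Foxp3 libraries. Per the submitters' processing notes, CASAVA 1.4 and the build mm10 were used. For the aligner, a name was not given in these labels or headers. The authors called peaks, per the file headers, with MACS 2.1.1.20160309 from paired-end fragments, on each library alone and with no control, at a q-value cutoff of 0.01, so the lists were not corrected for background seen with another antibody. The deposited pileup is a signal in fragments that is not scaled to depth, and the deposited fold is a ratio to background within the same library. The deposited significance is −log10 of a p-value or q-value, and the deposited positions, other than these values, are 1-based starts, ends and summits.

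From these lists, sites were selected by length, overlap and pileup with Python 3.11.15, pandas 2.3.3, numpy 2.4.6 and scipy 1.17.1. Where a site met several replicate 1 peaks, the peak of at least 500 bp with the largest overlap was its partner. Location was taken from the replicate 2 summit and the RefSeq GRCm38.p6 gene table, and starts, strands and sequences from the RefSeq promoter table, which matched 17274 of 21631 protein-coding genes. Shares have 95% exact Clopper-Pearson intervals. The overlap and counting steps were tested on simulated data. No test was run, because the sites were selected on measured values and there is 1 group.

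The members and the gene lists were chosen with earlier results of these data known. Named sites are the 8 longest, the 8 with the highest mean percentile of fold, the 3 longest of each location class, up to 3 per gene list, Rubcn and Foxp3, and 3 on each side of every limit. Sites with a pileup of at least 300, members of a list given by name beyond these, and the 9 sites of chromosome 6 were named after their values were seen. Some list members with a broad site are counted but not reported here by name. Malat1 and 10 older or newer duplicate histone symbols were not matched. Alternatives covered both length limits, overlap, pileup, −log10 q, windows, summits, each replicate alone and strand.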

Additional observations from a re-analysis of the deposited data

Results flagged for a closer look

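Signal was also present outside the chromosomes examined. On sequences other than chromosomes 1 to 19 and X, 316 peaks of replicate 2 and 1001 of replicate 1 were listed, and 4 sites there met the same limits of length, overlap and pileup. They lay on the mitochondrial genome and on 3 unplaced or unlocalised contigs. Their lengths were 804 to 1349 bp in replicate 2 and 705 to 1289 bp in replicate 1, and their folds were 3.02 to 5.04 and 4.36 to 11.9. The mitochondrial site had pileups of 269 and 109 fragments in replicates 2 and 1. No control library was analysed here, so these sites were set only against the limits themselves.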

How the results depend on the processing

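The number of broad sites was 6150 with a replicate 2 minimum of 600 bp and 1461 with 1000 bp, and the genes with a site were 4201 and 1040. With each replicate alone at 800 bp, the number ran from 3674 to 5197, the share at gene ends from 47.3 to 57.7%, the share inside genes from 22.8 to 28.2% and the share between genes from 19.5 to 24.5%. A replicate 1 minimum of 800 bp gave 54.1% at gene ends, 24.4% between genes and 1446 genes, and a pileup under 100 gave 52.5%, 25.6% and 1415 genes. Peaks with −log10 q of at least 10 gave 60.6% and 18.1%. Windows of 500 bp and 5000 bp gave 42.4% and 69.0% at gene ends, and 36.9% and 11.3% inside genes. Alternative activation had 3 genes with whole gene bodies, and the interferon list had 2 with 5000 bp. Spearman's rho was 0.34 for pileup and 0.33 for length. On the given strand alone, the word shares were 0.822% for forkhead, 7.51% for ETS, 0.822% for PU.1, 1.26% for AP-1, 56% for the GC box, 2.79% for NRF1, 19.6% for CCAAT, 2.90% for YY1 and 3.29% for TATA. An edge tolerance of 200 bp, added after the data were seen, gave 68.2% of sites between genes. The cause of these changes was not tested. The other 93 recomputed values stayed within the limits used, but these limits were wide for some quantities. Median fold counted as unchanged at 5.92 with replicate 2 alone and 11.5 with replicate 1 alone, against 9.05 under the main rule. The number of sites counted as unchanged at 2199 with a replicate 1 minimum of 800 bp, against 3185. Staying within the limits therefore does not show that a value was stable. Of 75 named sites, 31 had a pileup under 100 in both replicates and 63 overlapped by 50% of both lengths. No paired analysis was possible because there is 1 group with peak lists. Pileups from 17 fragments upward were available for broad sites, and weaker sites could not be listed.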

Other observations

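Gene families by symbol, singled out after their values were seen, differed in how many members had a broad site. Krüppel-like factors, zinc finger proteins that bind GC-rich words, had one at 10 of 17 genes (58.8%, 95% exact interval 32.9 to 81.6%), against 10.4% of all protein-coding genes. They were Klf1, Klf2, Klf3, Klf5, Klf6, Klf7, Klf10, Klf11, Klf13 and Klf14. The Klf13 site was 1178 and 1582 bp long with folds of 4.92 and 7.11 in replicates 2 and 1. The Klf2 site was 1103 and 1248 bp long with folds of 4.10 and 10.5. The Klf3 site was 1266 and 1027 bp long with folds of 5.09 and 7.79.

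Ubiquitin-conjugating enzymes and ligases named Ube had a broad site at 18 of 42 genes (42.9%, 27.7 to 59.0%). The Ube2d3 site was 1417 and 1416 bp long and the Ube2r2 site 1302 and 1305 bp. The Ube3a site was 1056 and 1074 bp long, with folds of 9.98 and 19.2. Taf genes, which encode subunits of the general factor TFIID and related complexes, had 8 of 24 (33.3%, 15.6 to 55.3%). Sorting nexin genes (Snx) had 9 of 30 (30%, 14.7 to 49.4%). No broad site was found at the 19 Sox genes matched by symbol, with an interval up to 17.6% that included the 10.4% of all genes. Other families also had none. Families were ranked on these same counts, so their shares are a description. Among all genes with promoters of at least 15 CpGs, 19.1% had a broad site. Promoter CpGs were not counted by family, so the part of CpG content in these shares was not tested.

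Of the 1340 broad sites away from ends of protein-coding genes, 89 (6.64%, 5.37 to 8.11%) had a summit near a long noncoding RNA gene, against 4.17% of such shorter shared sites. A microRNA gene was near 9 of them (0.672%, 0.308 to 1.27%), against 0.239%. Pseudogenes were near 21 (1.57%, 0.973 to 2.39%), against 2.55%. A snoRNA gene was near 1 (0.0746%, 0.00189 to 0.415%), an interval that included the 0.388% of shorter shared sites. The microRNA genes included Mir124a-3 (1370 and 967 bp in replicates 2 and 1) and Mirlet7i (1163 and 799 bp). Mir9-1, Mir3093 and Gm25641 were near the same site (1162 and 821 bp). The others were Mir193a, Mir760, Mir1247, Mir1893, Mir5620 and Mir8104. Broad sites rarely neighboured each other, with 61 sites in 30 groups with gaps of at most 10 kb.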
